A study of Mus musculus with 12 samples.

Results

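The vomeronasal type 1 receptor (*Vmn1r*) genes were examined in arrays of the mouse main olfactory epithelium (MOE), the nasal tissue that holds the olfactory sensory neurons (OSNs). Every probe set whose platform gene symbols all begin with Vmn1r was taken, which gave 147 of the 35556 probe sets of the table. Of these, 119 carried a single symbol and 28 carried several, up to 19, and together they named 163 genes. RefSeq (GRCm38.p6) lists 231 protein-coding *Vmn1r* genes, of which 118 had a probe set to themselves, 45 were measured only on a shared probe set and 68 had none among these 147. *Vmn1r208* had 2 probe sets of its own, and 3 shared probe sets held identical values.

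*Vmn1r* genes encode G protein-coupled receptors of the vomeronasal organ, a separate sense organ at the base of the nasal septum that detects pheromones and other social cues. They are expressed in its apical neurons together with the G protein subunit Gαi2 (*Gnai2*) and signal through the channel Trpc2, while the basal neurons express *Vmn2r* receptors with Gαo (*Gnao1*). Most neurons of the MOE express odorant receptors (ORs, *Olfr*) or trace amine-associated receptors (*Taar*) instead, so the MOE is not the main tissue in which *Vmn1r* genes are known to act.

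The arrays held total RNA of the MOE from 6 ΔJ mice and 6 wild-type mice, labelled as strain C57BL/6, with 1 array per mouse and no pooling stated. ΔJ mice are homozygous for a CRISPR-Cas9 deletion of the J element, an enhancer of class I OR genes on chromosome 7. They came from 1 founder, made in B6C3F1 eggs and backcrossed to C57BL/6, and the wild-type mice are littermates that carry the intact element. Of the ΔJ mice 3 were male and 3 female, and of the wild-type mice 2 were male and 4 female. All were at P30 except 1 ΔJ and 2 wild-type mice at P33. The labels number the mice 1 to 6 in each group. A level here is the log2 signal of a probe set minus the 75th percentile of its array, so 0 marks that percentile and a step of 1 is a doubling. Signals of different probe sets depend on their probes, so levels place a probe set on the scale of the array and do not order amounts of RNA between genes.

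The tissue label fitted its markers: *Omp*, the marker of mature OSNs, lay at 3.97, and all 13 probe sets of the mature OSN list lay above the background gauge described below. Male and female differed in the 3 Y-linked genes measured, *Kdm5d*, *Uty* and *Eif2s3y*, as labelled. Replicates 1 to 3 and 4 to 6 formed separate sets of arrays, with a deposited 75th percentile of 8.38 to 8.42 in the first and 8.53 to 8.56 in the second. Among *Vmn1r* probe sets a single mouse also stood apart, the male ΔJ replicate 2, and results that rest on it are given with and without it.

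Many *Vmn1r* genes share probe sets, and their coding starts range from identical to unlike. The first 50 bases of the annotated coding start, from RefSeq (GRCm38.p6), are shown for the chromosome 6 genes whose probe sets stood apart in ΔJ replicate 2, and for *Vmn1r86*, which had the highest mean level. Not shown are *Vmn1r32*, whose annotated start is not on an ATG, and *Vmn1r4*. The start codon is in capitals.
Vmn1r33 (chr6:66612519-66612568, minus strand): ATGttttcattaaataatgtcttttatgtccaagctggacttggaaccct
Vmn1r38 (chr6:66777081-66777130, minus strand): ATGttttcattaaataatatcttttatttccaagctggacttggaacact
Vmn1r34 (chr6:66637703-66637752, minus strand): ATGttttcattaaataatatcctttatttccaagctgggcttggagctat
Vmn1r35 (chr6:66679635-66679684, minus strand): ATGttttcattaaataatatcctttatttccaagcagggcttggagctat
Vmn1r36 (chr6:66716840-66716889, minus strand): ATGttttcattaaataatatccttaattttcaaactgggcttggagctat
Vmn1r37 (chr6:66731392-66731441, plus strand): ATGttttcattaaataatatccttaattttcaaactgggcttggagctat
Vmn1r12 (chr6:57158920-57158969, plus strand): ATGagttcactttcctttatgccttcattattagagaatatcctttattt
Vmn1r20 (chr6:57431691-57431740, plus strand): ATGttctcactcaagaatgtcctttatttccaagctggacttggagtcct
Vmn1r27 (chr6:58215968-58216017, minus strand): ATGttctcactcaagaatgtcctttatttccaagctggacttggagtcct
Vmn1r86 (chr7:13102898-13102947, minus strand): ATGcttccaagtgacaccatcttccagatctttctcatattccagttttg

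Position by position and without gaps, *Vmn1r36* and *Vmn1r37* were identical over these 50 bases, as were *Vmn1r20* and *Vmn1r27*. *Vmn1r33* and *Vmn1r38* differed at 3 of 50 positions and *Vmn1r34* and *Vmn1r35* at 1, while *Vmn1r33* and *Vmn1r86* shared 36% of positions. *Vmn1r12*, which shares a probe set with *Vmn1r33* to *Vmn1r38*, matched them at 34 to 42% of positions. The last bases shown for *Vmn1r12* recur nearer the start in *Vmn1r34* and *Vmn1r35*. A comparison without gaps therefore understates how alike these genes are. Among 118 measured genes with such a window, pairs that share a probe set had a median identity of 72% (interquartile range 36 to 91%, 259 pairs, 25.9% of them at 90% or more). Pairs that share none had a median of 32% (6644 pairs, 0.617% at 90% or more). RefSeq placed the annotated start of 181 of 206 *Vmn1r* windows (87.9%) on an ATG, against 5.83% of all windows. For those genes the annotated start is the start codon, and no promoter is shown.

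*Vmn1r* probe sets lay near the bottom of the signal range of the MOE. Their median level over the 12 mice was -4.83 (interquartile range -5.23 to -4.19), a deposited log2 signal of 3.64, and 6.96% of all probe sets lay below that median. The range ran from -6.16 for *Vmn1r22* to -2.55 for *Vmn1r86*, and 33.2% of all probe sets lay below *Vmn1r86*. The median was -4.56 for 92 *Vmn2r* probe sets, -1.82 for 1133 *Olfr* probe sets and -1.51 for 15 *Taar* probe sets.

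Signals of genes that should be silent served as gauges of background. Y-linked *Kdm5d* had a mean level of -3.72 in the 7 females, which have no Y chromosome. Of the 147 *Vmn1r* probe sets, 17 (11.6%) lay above it, against 83.6% of all probe sets. *Kdm5d* was the highest of the Y-linked genes in females. The female means of *Uty* and *Eif2s3y* were lower, at -4.69 and -4.99, and the *Vmn1r* median of -4.83 lay between them. Over single females the highest Y-linked value was -3.05, and 6 *Vmn1r* probe sets exceeded it. Among 17 single-gene probe sets of genes of other tissues, the highest mean was that of pituitary *Gh* at -1.37, and 0 *Vmn1r* probe sets exceeded it. *Gh* varied among mice, from -2.42 to 0.86, and is the extreme of that list. The median of the list was -2.80 and its lowest mean -3.87. Of the 17 above *Kdm5d*, 7 carried a single symbol. Most *Vmn1r* probe sets thus lay within the range of signals that probe sets gave for genes these samples should lack. From such mean levels, a low level of *Vmn1r* RNA could not be told from background.

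**Figure D1:**
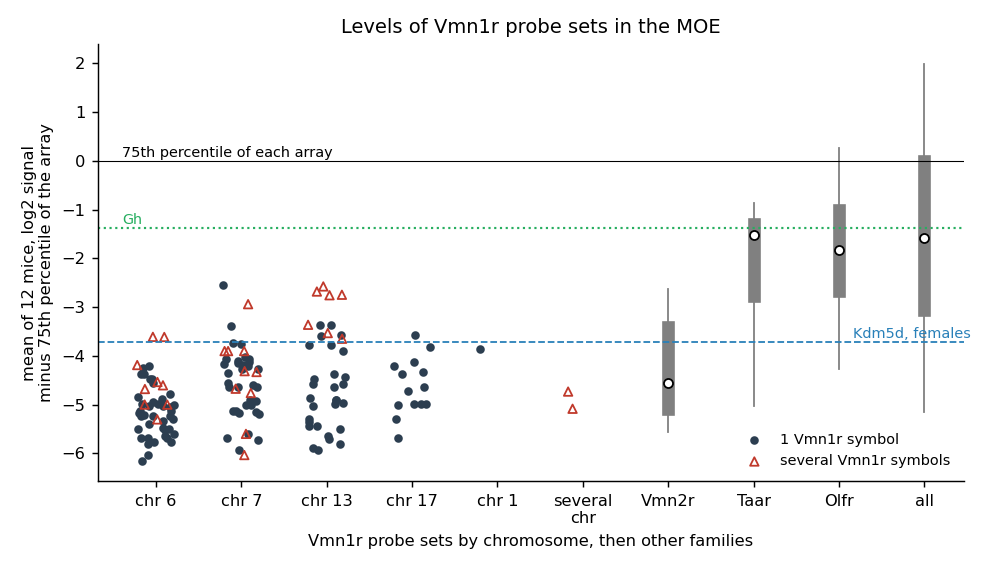
Mean level over 12 mice (log2 signal minus the 75th percentile of the array) of each *Vmn1r* probe set by chromosome, with filled points for 1 symbol and open triangles for several. Bars give the 25th to 75th and lines the 5th to 95th percentiles of *Vmn2r*, *Taar*, *Olfr* and all probe sets, with circles at the median. Of 147 *Vmn1r* probe sets, 17 lie above the dashed *Kdm5d* line and 0 above the dotted *Gh* line.

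Among the 10 highest *Vmn1r* probe sets were *Vmn1r86*, *Vmn1r217*, *Vmn1r208* and *Vmn1r75* alone and 6 shared ones. *Vmn1r86* (chr7:13101997-13102947) had a lowest, median and highest level of -3.02, -2.38 and -1.93 in wild-type mice and of -3.35, -2.57 and -1.82 in ΔJ mice. The ranges of the 2 genotypes overlapped almost fully. *Vmn1r217* (chr13:23113834-23114730) lay at -4.04, -3.44 and -2.68 in wild-type mice and at -4.04, -3.36 and -2.70 in ΔJ mice, again with matching ranges.

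*Vmn1r208* (chr13:22772399-22773325) lay at -3.68 to -2.78 in wild-type and -3.67 to -2.93 in ΔJ mice on the probe set with the higher mean (-3.37), and its other probe set had a mean of -3.58. *Vmn1r75* (chr7:11880343-11881260) lay at -3.62 to -2.97 in wild-type and -3.86 to -3.11 in ΔJ mice. Of the 6 shared probe sets, 4 listed *Vmn1r221* with other chromosome 13 genes or *Vmn1r223*, *Vmn1r204*, *Vmn1r193* and *Vmn1r202* at means of -2.57, -2.68, -2.74 and -2.76, and another *Vmn1r221* set lay at -3.36. The sixth listed *Vmn1r186* and other chromosome 7 genes, at -2.94. Genes of a shared probe set cannot be told apart.

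By chromosome, the median was -5.08 for the 50 probe sets of chromosome 6, -4.45 for the 44 of chromosome 7, -4.57 for the 36 of chromosome 13 and -4.67 for the 14 of chromosome 17. Of those above the *Kdm5d* gauge, 11 were on chromosome 13, 3 on chromosome 7, 2 on chromosome 6 and 1 on chromosome 17. By the older subfamily names, the median ran from -5.22 for the 33 V1rc probe sets of chromosome 6 to -4.34 for the 5 V1rf probe sets of chromosome 17 among subfamilies with 5 or more. The 24 V1rh and 11 V1ri probe sets of chromosome 13 had medians of -4.94 and -4.37 and held 8 and 3 of those above the gauge. The lowest levels were those of *Vmn1r22*, of the set of *Vmn1r159* and other genes, and of *Vmn1r23*, at -6.16, -6.03 and -6.03.

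In ΔJ replicate 2 some *Vmn1r* and many *Vmn2r* probe sets lay above every other mouse, while the median over the *Vmn1r* family was highest in wild-type replicate 3 (-4.36, against -4.41 in ΔJ replicate 2). Over the whole array, 23 probe sets were more than 2-fold above every other mouse in this mouse. They included 4 *Vmn1r* and 15 *Vmn2r* probe sets and that of *Calr4*, a calreticulin gene known from vomeronasal neurons, and 0 of the *Olfr* and *Taar* probe sets. The other 3 were those of *Gm36028*, *Clca3b* and *Pomc*. In each of the other 11 mice, 0 *Vmn1r* and 0 *Vmn2r* probe sets were more than 2-fold above the rest. The mouse and the probe sets described in the next paragraphs were chosen after their values were seen and carry no test.

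All 4 *Vmn1r* probe sets were V1rc sets of chromosome 6. The probe set of *Vmn1r12*, *Vmn1r32* to *Vmn1r38* (10545117) had a level of -2.92 in this mouse and of -5.68 to -4.97 in the others, 4.15-fold above the highest of them. In this mouse 26.7% of all probe sets lay below it. A second probe set of these genes together with *Vmn1r4* (10538840) lay at -2.64, against -5.37 to -4.19. *Vmn1r33* (chr6:66611651-66612568), measured alone, lay at -3.86, against -5.86 to -5.40. The probe set of *Vmn1r20* and *Vmn1r27* lay at -3.41, against -5.54 to -4.71. None of the ranges of the other 11 mice reached the value of ΔJ replicate 2.

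Other genes of this group, measured alone, differed among themselves. *Vmn1r38*, whose start is the most like that of *Vmn1r33*, lay at -3.57 in ΔJ replicate 2 and at -5.65 to -4.43 in the others. *Vmn1r35* and *Vmn1r36* were higher by less, at -5.05 and -4.53 against highest values of -5.37 and -4.82 elsewhere. *Vmn1r32* lay at -4.34 in this mouse, inside the -4.41 to -4.23 of the other replicates 1 to 3. *Vmn1r27*, measured alone, lay at -3.76, above the highest other value of -3.99.

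Outside chromosome 6, single *Vmn1r* probe sets of other subfamilies were also highest in this mouse. *Vmn1r71* (V1re, chromosome 7) lay at -3.20, against -4.55 to -3.93 in the others. *Vmn1r89* (V1rj, chromosome 7) lay at -2.53, against -4.58 to -3.19. The *Vmn1r221* set 10403988 on chromosome 13 lay at -1.57, the highest value of any *Vmn1r* probe set in any mouse, against -3.52 to -2.12. In all, 8 *Vmn1r* probe sets were more than 0.5 above every other mouse in ΔJ replicate 2, against 53 of all 35556 probe sets. In the male wild-type replicate 3 it was 1 (*Vmn1r48*), against 112 of all. Each of the remaining 10 mice had 0, against 12 to 506 of all. The family as a whole moved little: over the 147 probe sets, the median difference from the median of the other replicates 1 to 3 was 0.10, against -0.02 over all probe sets.

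*Vmn2r* probe sets stood apart more widely in the same mouse. Their median was -3.73, against -4.33 to -4.07 in the other replicates 1 to 3, and ΔJ replicate 2 was the highest of these 6 mice in 58 of 92 *Vmn2r* probe sets (63.0%), in 53 of 147 *Vmn1r* probe sets (36.1%) and in 11.0% of all probe sets. Wild-type replicate 3 was the highest in 73 *Vmn1r* probe sets (49.7%), but it was also the highest in 37.6% of all probe sets. Of the 15 *Vmn2r* probe sets past 2-fold, 14 were on chromosome 7. These 14 list overlapping genes, all of them including *Vmn2r29*, *Vmn2r33*, *Vmn2r35* and *Vmn2r43*, so they are not independent and do not count receptors. The largest gap among *Vmn2r* probe sets was that of a probe set of *Vmn2r51* and other genes, at -1.27 against -4.00 to -3.65.

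Of the 21 vomeronasal neuron markers measured, ΔJ replicate 2 was the highest of replicates 1 to 3 in 5, against 11.0% of all probe sets. The 5 were *Calr4*, *Nrp2*, *Meis2*, *Gnai2* and *H2-M10.5*. *Calr4* alone was apart, at -1.75 against -3.42 to -2.94. *Trpc2*, measured only on a probe set shared with *Xntrpc* and *Xndc1*, lay at -1.21 in this mouse and at -1.31 to -1.16 in the others. *Gnai2* lay at 2.25 against 2.03 to 2.47 in all other mice and 2.03 to 2.14 in the other replicates 1 to 3. *Gnao1* lay at 2.98 against 2.47 to 3.30 in all other mice. None of the H2-M genes of the list, which encode MHC molecules of basal vomeronasal neurons, exceeded every other mouse. The summed signal of the 21 markers was 5.26 (log2) in ΔJ replicate 2, within the 4.93 to 5.35 of ΔJ and the 5.17 to 5.30 of wild-type mice. Most of that sum came from *Gnao1*, *Cnga4*, *Gnai2* and *Pde4a*, with mean levels of 3.00, 2.91, 2.21 and 2.09, which other cells also express. It therefore cannot show a change in markers at low levels, such as *Calr4* and the H2-M genes. Of the 21 markers, 16 lay above the *Kdm5d* gauge in the mean of all mice. Whether the sample of this mouse held vomeronasal tissue was not tested.

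**Figure D2:**
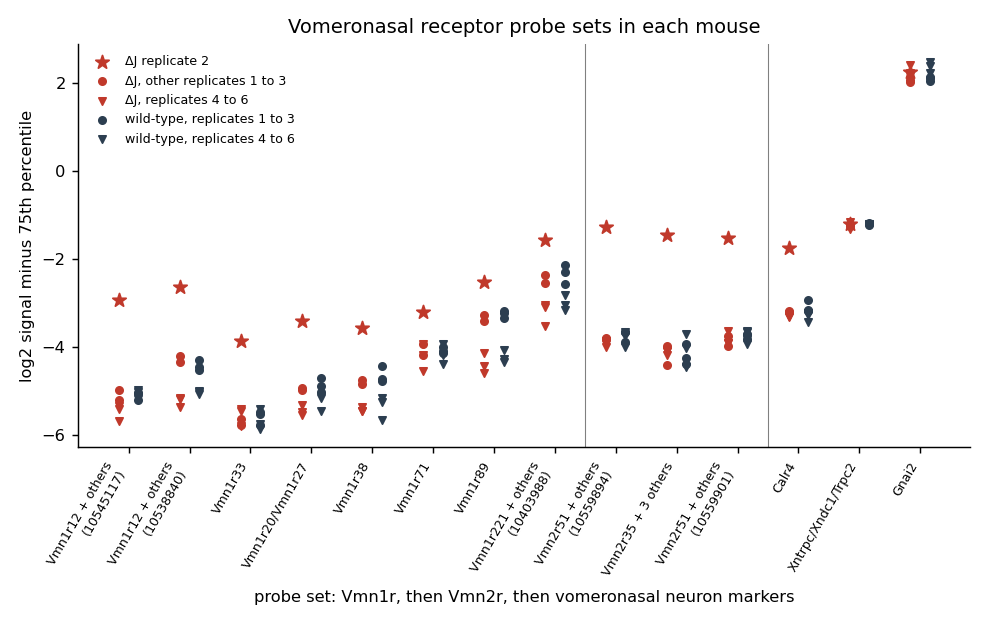
Level (log2 signal minus the 75th percentile) in each mouse of the 8 *Vmn1r* probe sets more than 0.5 above every other mouse in ΔJ replicate 2 (star), the 3 *Vmn2r* probe sets with the largest gap, and *Calr4*, *Trpc2* and *Gnai2*; red marks ΔJ, dark blue wild-type, circles replicates 1 to 3 and triangles 4 to 6. ΔJ replicate 2 lies above all other mice for the receptor probe sets and *Calr4*. It lies among them for the *Trpc2* probe set and *Gnai2*, though for *Gnai2* it is the highest of replicates 1 to 3.

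The comparison of ΔJ and wild-type mice asked whether *Vmn1r* signals differ without the J element. No *Vmn1r* probe set was called. A probe set was called when it differed by more than 1.3-fold with an adjusted p below 0.05 (limma, Benjamini-Hochberg over all 35556 probe sets), and 0.135% of all probe sets were called. The smallest adjusted p of a *Vmn1r* probe set was 0.993. Before adjustment, 1 of 147 had a p below 0.05, against 3.33% of all probe sets, and with the replicate number as a block 8 of 147, against 7.9%, with a smallest adjusted p of 0.618. In bulk tissue, fewer cells that express a gene and less RNA per cell cannot be told apart.

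Log2 fold changes of ΔJ over wild-type ran from -0.36 to 0.31, so 0 were beyond 1.3-fold, against 2.91% of all probe sets. The ranges of the 2 genotypes were separate for 0 of 147, against 0.301% of all. The median fold change was -0.06 (log2), against -0.03 over all probe sets, and 104 of 147 were negative, against 60.2% of all. With each array centred on its median instead, 89 of 147 were negative, against 44.2% of all, and the median was -0.02 for *Vmn1r* and 0.01 for all probe sets. With sex and age as covariates 0 were called and 14 of 147 had an unadjusted p under 0.05, against 7.81% of all, with a median of -0.19 for *Vmn1r* and -0.05 for all probe sets. The median turned positive, to at most 0.02, without ΔJ replicate 4, ΔJ replicate 6 or wild-type replicate 3. The 95% interval lay within 1.3-fold for 38 probe sets, within 1.5-fold for 106 and within 2-fold for 146, with a median half-width of 0.39. These intervals come from the fit with genotype alone, so the spread between the replicate sets is part of their width. For the probe sets whose interval reached beyond 1.3-fold, that fit could not exclude a change of that size.

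Without ΔJ replicate 2, still 0 *Vmn1r* probe sets were called, against 37 of all probe sets. Of the 147, 6 had an unadjusted p under 0.05, against 3.31% of all, and the median fold change was -0.15, against -0.04 over all. The positive fold changes of the chromosome 6 sets rested on this mouse: *Vmn1r33* had the highest fold change of the family, 0.31 ± 0.28 (SE) with it and 0.02 without it. The set of *Vmn1r12* and *Vmn1r32* to *Vmn1r38* (10545117) went from 0.16 to -0.24, that with *Vmn1r4* (10538840) from 0.25 to -0.12, and that of *Vmn1r20* and *Vmn1r27* from 0.12 to -0.19.

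**Figure D3:**
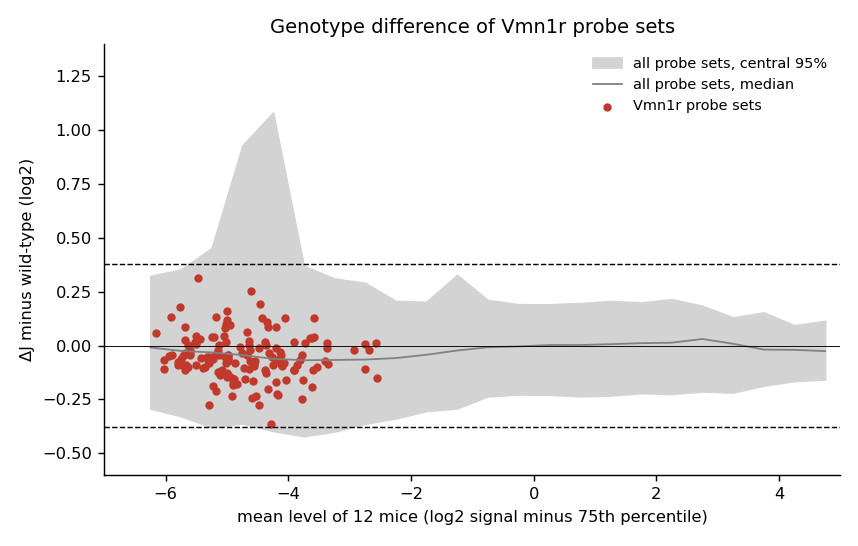
ΔJ minus wild-type log2 difference of each *Vmn1r* probe set (red) against its mean level; grey gives the median and central 95% of all probe sets in steps of level, and dashed lines mark 1.3-fold. All 147 *Vmn1r* probe sets lie between -0.36 and 0.31, inside the dashed lines.

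The smallest unadjusted p belonged to *Vmn1r211* (V1rh, chr13:22851599-22852495). Its lowest, median and highest levels were -4.63, -4.49 and -4.42 in wild-type and -4.77, -4.69 and -4.53 in ΔJ mice, so the groups overlapped. The fold change was -0.16 ± 0.07 (SE), with an adjusted p of 0.993 in limma. *Vmn1r174* (V1rd, chr7:23753911-23754852) had the lowest fold change, -0.36 ± 0.22, at levels of -4.60 to -3.43 in wild-type and -4.97 to -3.74 in ΔJ mice. *Vmn1r171*, its neighbour on chromosome 7, lay at -4.50 to -3.74 in wild-type and -4.37 to -4.22 in ΔJ mice, a fold change of -0.23.

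The rest of the 10 probe sets with the smallest p were those of *Vmn1r200*, *Vmn1r72*, *Vmn1r178*, *Vmn1r78*, *Vmn1r203*, *Vmn1r41* with *Vmn1r53*, and *Vmn1r47* with *Vmn1r48* and *Vmn1r45*. Their fold changes lay between -0.25 (*Vmn1r178*) and 0.13 (*Vmn1r203*), the latter being the single positive one among the 10. The 44 probe sets of chromosome 7, which also carries the class I OR cluster, had a median of -0.07 with 37 negative. The medians were -0.04 on chromosome 6 (28 of 50 negative), -0.07 on chromosome 13 (25 of 36) and -0.07 on chromosome 17 (11 of 14).

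Within replicates 1 to 3 the median fold change was -0.01, with 77 of 147 negative, and within replicates 4 to 6 it was -0.11, with 123 negative. The medians over all probe sets were -0.02 and -0.03. In both sets 0 *Vmn1r* probe sets were called, against 15 and 19 of all probe sets. An unadjusted p under 0.05 was found for 5 of 147 in replicates 1 to 3, against 3.92% of all, and for 18 of 147 in replicates 4 to 6, against 7.15% of all. The difference of the ΔJ effect between the sets gave 0 called probe sets and 6 at an unadjusted p under 0.05, against 3.83% of all. Among the 92 *Vmn2r* probe sets, 0 were called and the fold changes ran from -0.25 to 0.42. Among the 21 vomeronasal neuron markers, 0 were called, with fold changes of -0.19 to 0.20, and *Gnai2*, *Gnao1* and the *Trpc2* probe set stood at -0.04, -0.10 and -0.02. The 4 formyl peptide receptor genes, another receptor family of the vomeronasal organ, had fold changes of -0.18 to 0.10, and 0 were called. The 6 genes of vomeronasal and septal glands lay between 3.81 and 4.97, and 0 were called.

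No *Vmn1r* probe set was called between males and females, and 0.0141% of all probe sets were. Before adjustment, 2 of 147 had a p below 0.05, against 4.65% of all, and the smallest adjusted p was 0.896 (limma). Both were probe sets of *Vmn1r238*, *Vmn1r3*, *Vmn1r2* and *Vmn1r79*. The first (10549990) lay at -5.22 to -4.79 in the 5 males and -5.34 to -4.93 in the 7 females, with a male minus female difference of 0.23. The second (10527878) lay at -4.89 to -4.41 in males and -4.99 to -4.60 in females, with a difference of 0.22.

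The median difference of males over females was 0.17 over *Vmn1r* probe sets, with 134 of 147 positive. It was 0.04 over all probe sets, with 62.3% positive. The other receptor families were shifted alike: 0.20 for *Vmn2r* (84 of 92 positive), 0.17 for *Olfr* (1042 of 1133) and 0.18 for *Taar* (14 of 15). With each array centred on its median, 126 *Vmn1r* probe sets were positive, against 46.4% of all. After quantile normalization 123 were, against 51.4% of all. The *Vmn1r* medians were 0.12 and 0.10, in that order. *Vmn1r86* was 0.50 higher in males (95% interval -0.05 to 1.06), the set of *Vmn1r221* and other genes (10404008) 0.33 higher (-0.03 to 0.69) and *Vmn1r200* 0.17 higher (-0.01 to 0.36). Of the 5 males 3 were among replicates 1 to 3, as were ΔJ replicate 2 and wild-type replicate 3. Without ΔJ replicate 2 the median difference was 0.09 with 121 positive, without wild-type replicate 3 it was 0.07 with 110 positive, and without single mice in turn it ran from 0.07 to 0.28 (without ΔJ replicate 6). With the replicate set as a further covariate it was 0.07 with 117 positive. The ΔJ effect differed between the sexes in 0 probe sets, with 3 of 147 at an unadjusted p under 0.05, against 3.4% of all.

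The widest differences among *Vmn1r* probe sets followed the replicate number. In replicates 4 to 6, 96 of 147 were called lower than in replicates 1 to 3 and 0 were called higher. Of all probe sets 15.5% were called lower and 3.49% higher. The median difference was -0.53 over *Vmn1r* probe sets and -0.10 over all probe sets. It was -0.39 against 0.05 on the deposited values, without the percentile shift, and -0.18 against -0.01 after quantile normalization. The 2 array sets and the mice in them varied together, so what the numbers share cannot be told apart. The 3 mice at P33 were all among replicates 4 to 6, with *Vmn1r* medians of -5.18, -4.95 and -4.93. The P30 mice of that set had medians of -5.05, -5.02 and -4.99. Replicates 1 to 3, all at P30, had medians of -4.56 to -4.36. The part of age was not tested.

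The 5 largest of the called differences were those of *Vmn1r32*, *Vmn1r176*, *Vmn1r217*, *Vmn1r18* and *Vmn1r219*. *Vmn1r32* (chr6:66552183-66559708) had a lowest, median and highest level of -4.41, -4.34 and -4.23 in replicates 1 to 3 and of -5.90, -5.63 and -5.45 in replicates 4 to 6. *Vmn1r176* (chr7:23834812-23835726) lay at -3.66, -3.51 and -3.36 in the first set and at -5.02, -4.77 and -4.62 in the second. The sets did not overlap for either gene. *Vmn1r217* fell by 1.23, *Vmn1r18* by 1.15 and *Vmn1r219* by 1.15 on the log2 scale.

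The called probe sets came from every *Vmn1r* chromosome with more than 2 probe sets: 37 of 50 on chromosome 6, 24 of 44 on chromosome 7, 25 of 36 on chromosome 13 and 9 of 14 on chromosome 17. Lower values were also seen in other low signals. All 4 formyl peptide receptor genes, 51 of 92 *Vmn2r* probe sets and 43.5% of all probe sets below the *Kdm5d* gauge were called lower. Receptor families with medians above the gauge were lower too. Of *Taar* probe sets (median level -1.51) 9 of 15 were called lower and 0 higher. Of *Olfr* probe sets (-1.82) 382 of 1133 (33.7%) were called lower and 11 higher. Their median differences were -0.48 and -0.28. The median of all probe sets below the gauge lay at -4.61 to -4.47 in replicates 1 to 3 and at -4.85 to -4.80 in replicates 4 to 6. *Kdm5d*, which females lack, lay at -3.34 to -3.05 in the females of replicates 1 to 3 and at -4.23 to -3.86 in those of replicates 4 to 6. The *Vmn1r* median of single mice lay at -4.56 to -4.36 in the first set and at -5.18 to -4.93 in the second. *Omp* changed by -0.03 and the *Trpc2* probe set by -0.01. Other markers did move. Among the 21 vomeronasal neuron markers 4 were called lower (*H2-M1*, *H2-M9*, *H2-M10.1* and *H2-M10.6*) and 0 higher. In the mature OSN list, 2 *Cngb1* probe sets were called lower and that of *Gng13* higher. Other-tissue genes gave 5 of 18 called lower, and blood globins 2 of 4 called higher. Over all probe sets 15.5% were called lower and 3.49% higher. The part of the array signal at low values in the *Vmn1r* difference was not tested.

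**Figure D4:**
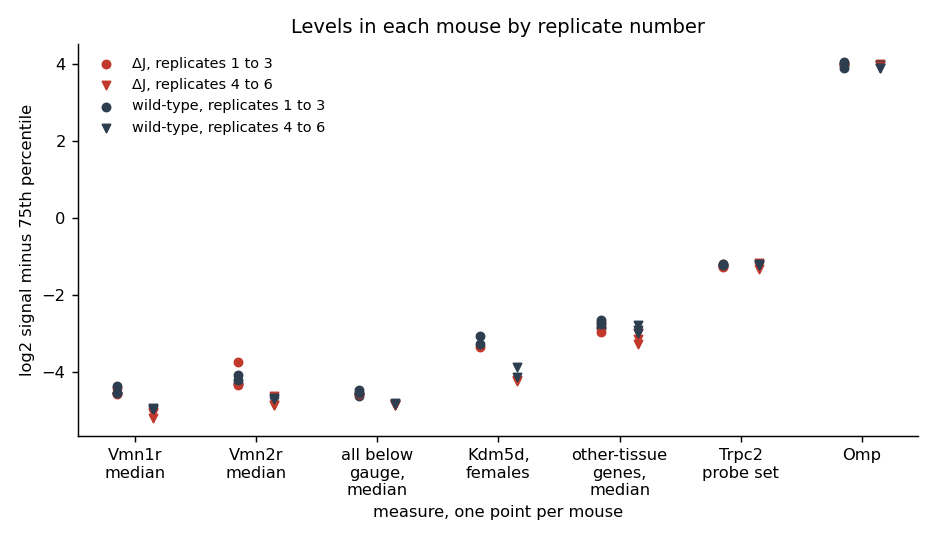
Level (log2 signal minus the 75th percentile) in each mouse of the *Vmn1r* median, the *Vmn2r* median, the median of all probe sets below the gauge, *Kdm5d* in females, the median of other-tissue genes, the *Trpc2* probe set and *Omp*; circles are replicates 1 to 3 and triangles 4 to 6, red ΔJ and dark blue wild-type. The *Vmn1r* medians lie at -4.56 to -4.36 in replicates 1 to 3 and at -5.18 to -4.93 in replicates 4 to 6, with no overlap.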

How the data were processed

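MOE RNA of 12 mice was hybridized to Mouse Gene 1.0 ST arrays (Affymetrix). For 35556 probe sets, log2 signals were deposited by the authors. Affymetrix Expression Console is named in the submitters' processing notes, with version and settings not given in the sources used here. Each array was shifted by its 75th percentile in the authors' methods, a step that the deposited values precede, so it was subtracted here from the log2 values. Symbols came from the platform annotation (21789 with 1 symbol, 1621 with several, 12146 with none), and chromosomes and older subfamily names came from RefSeq GRCm38.p6, where all 163 *Vmn1r* gene IDs were found.

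All 35556 probe sets were fitted with limma 3.58.1 (lmFit, eBayes) in R 4.3.3, separately for genotype (no covariate), sex and replicate set (1 to 3, 4 to 6), the latter 2 with genotype as a covariate, and the interactions of genotype with sex and with set, with Benjamini-Hochberg adjustment over all probe sets. Called means a difference of more than 1.3-fold with an adjusted p below 0.05. The steps were tested on simulated data. The number of arrays limits the precision, and p-values measure the spread between these mice.

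Pairing by the label numbers was checked: deviations of same-numbered ΔJ and wild-type mice correlated at 0.365, 0.294, 0.419, 0.441, 0.185 and 0.385, all above 0.1, so a fit with the number as a block was also run. The sources used here do not say what a number marks. Centring, quantile normalization, covariates, low-signal filters, gauges and leaving out each mouse were tried as alternatives.

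Members, lists and tests were chosen with earlier results of these data known. Named *Vmn1r* probe sets are the 10 highest, the 10 with the smallest genotype p, the 5 with the smallest sex p, the 5 with the largest SD within genotype and set, the 3 lowest and every one called, with those called between replicate sets given by counts and the 5 largest; *Vmn1r4*, *Vmn1r27*, *Vmn1r35*, *Vmn1r36*, *Vmn1r38*, *Vmn1r48*, *Vmn1r71* and *Vmn1r89* were named after their values were seen. The lists held vomeronasal neurons (21 genes), vomeronasal and septal glands (6 of 9 measured), mature OSNs, Y-linked genes, blood globins, formyl peptide receptors (4 of 5) and genes of other tissues (18 of 20). The 4 globin probe sets differed between genotypes by 0.07 to 0.23 (log2), and 0 were called.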

Additional observations from a re-analysis of the deposited data

Results flagged for a closer look

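In each genotype, the highest and lowest mouse of the named *Vmn1r* probe sets and of the family median was compared with its nearest neighbour, as a share of the range of the 6 mice. In 5 of 82 such groups the share passed Dixon's critical value for 6 samples, and chance flags about 1 in 20 groups, a rate that does not apply to these, since some of the probe sets were named for their spread or their gap. In ΔJ mice, ΔJ replicate 2 was the highest for *Vmn1r33* (share 0.796), for the probe set of *Vmn1r12* and *Vmn1r32* to *Vmn1r38* (0.744), for *Vmn1r20* with *Vmn1r27* (0.714) and for *Vmn1r38* (0.629). These genes lie on chromosome 6, and several of these probe sets share genes, so the 4 are not independent. ΔJ replicate 6 was the lowest for *Vmn1r23* (0.719), at -6.69 against -6.08 to -5.85 in the other ΔJ mice. Over all 147 *Vmn1r* probe sets and both genotypes (294 groups), a mouse was apart in 8 groups as the highest, 6 of them ΔJ replicate 2 and the other 2 wild-type replicate 3, and in 2 groups as the lowest.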

How the results depend on the processing

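In the genotype comparison 0 *Vmn1r* probe sets were called in each of the 12 alternatives and without any single mouse, and the median fold change ran from -0.15 (without ΔJ replicate 2) to 0.02 when single mice were left out. With the replicate number as a block 0 were called and the median stayed at -0.06. Over the alternatives it ran from -0.19, with sex and age as covariates, to -0.01, within replicates 1 to 3. Calls between the sexes were 0 in all 6 alternatives. For the replicate sets, 96 calls became 43 after quantile normalization (38 lower, 5 higher) and 10 of the 17 probe sets above the *Kdm5d* gauge, with 88 to 101 when single mice were left out. The number of *Vmn1r* probe sets above background, 17 against *Kdm5d*, was 6 against the highest female Y-linked value, 0 against *Gh*, 7 with 1 symbol and 11 within replicates 1 to 3, and 16 to 22 without single mice. The cause was not tested. Fold changes of named probe sets reversed as follows, each small against its error. After quantile normalization they were 0.037 for *Vmn1r221* and other genes (10403988), 0.038 for *Vmn1r186* and other genes and 0.046 for *Vmn1r208*. With P30 mice alone they were -0.017 and -0.033 for the *Vmn1r221* sets 10404008 and 10408148, -0.15 for *Vmn1r217*, 0.0056 for *Vmn1r75*, -0.018 for *Vmn1r22* and -0.052 for *Vmn1r219*. Without single mice the range was -0.14 to 0.11 for 10404008, -0.25 to 0.14 for 10403988, -0.13 to 0.080 for 10408148, -0.10 to 0.032 for *Vmn1r186* and other genes, -0.29 to 0.11 for 10408130, -0.12 to 0.15 for *Vmn1r217*, -0.10 to 0.11 for *Vmn1r208* and -0.14 to 0.012 for *Vmn1r75*. It was -0.24 to 0.31 for 10545117, -0.12 to 0.43 for 10538840, -0.19 to 0.24 for *Vmn1r20* and *Vmn1r27*, -0.024 to 0.12 for *Vmn1r22*, -0.25 to 0.015 for *Vmn1r159* and other genes, -0.16 to 0.059 for *Vmn1r23*, -0.21 to 0.12 for *Vmn1r32*, -0.19 to 0.14 for *Vmn1r176*, -0.32 to 0.029 for *Vmn1r18* and -0.051 to 0.24 for *Vmn1r219*.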
